A study of Homo sapiens with 18 samples.

Results

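Transplanted osteosarcoma tissue kept in culture (isolated tissue, IT) was compared with cells of the same line grown in a gel (3D cells, D-3) on day 14 of culture. The comparison took the 3 IT libraries and the 3 D-3 libraries, 6 of the 18 RNA sequencing libraries of the study, by the sample labels alone. All 18 libraries are labelled as Saos-2, an established human osteosarcoma cell line that the labels spell Soas-2 and give as wild-type (WT). The study set cells on plastic (D-2), 3D cells (D-3) and 3D-printed cells (DP-3) beside IT and beside freshly taken tumor (FIT), with 3 libraries in each group and 3 more of DP-3 on day 1. The question asked here is what a tumor explant retained over cells that had never been in an animal once both had spent the same time in a dish.

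For D-3, Saos-2 cells were mixed with Matrigel, a basement membrane extract, and droplets of the mixture were cultured in complete medium for 14 days. For IT, Saos-2 cells in Matrigel had first been implanted under the skin of the axilla of young female BALB/c nude mice, which lack mature T cells. The tumors were then excised, and small pieces were laid on Matrigel and cultured for 14 days in the medium used for D-3. FIT was another part of such tumors and was labelled as grown in vivo to day 14. IT and FIT are therefore parts of tumors from the same group of mice, whereas IT and D-3 share the line, the medium and the days in culture. IT also had its days in the mouse, so the total time since plating and the stay in the animal cannot be told apart. The labels number the replicates, but neither they nor the methods say which mouse gave which IT library. The p-values thus measure the spread between these libraries, which may be technical.

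Osteosarcoma cells belong to the bone-forming lineage, and they deposit, cut and hold on to extracellular matrix. In a mouse they meet host vessels, fibroblasts and serum proteins, and in a gel droplet they meet a basement membrane extract and diffusion-limited nutrients. An explant can carry over the transcripts set in the animal, and it can carry over host cells. In bulk RNA, fewer cells of a type and less RNA per cell cannot be told apart.

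Values are given as FPKM (fragments per kilobase of transcript and per unit of sequencing depth), and fold changes come from the estimated counts. A differentially expressed gene (DEG) had an adjusted p below 0.05 in edgeR's quasi-likelihood test, adjusted by the Benjamini-Hochberg method over 21702 genes tested, and a fold change of at least 2. With 3 libraries against 3, an exact permutation test of a single gene cannot give a two-sided p below 0.1. The 6 libraries held 57049025 to 67231699 estimated counts. About 4 of these were taken to stand for 1 read pair, which is an assumption. Mitochondrial genes took 4.57 to 6.21% of the counts in IT and 2.83 to 4.05% in D-3. Correlations of log2(FPKM + 0.1) were 0.924 to 0.957 within IT, 0.941 to 0.957 within D-3 and 0.917 to 0.948 between them. IT replicate 3 stood apart from the other IT libraries, and results that rest on it are given without it. The first principal component (33.8% of the variance) placed IT replicate 3 on the side of D-3 replicates 1 and 3. It placed D-3 replicate 2 on the side of IT replicates 1 and 2, so it split both groups. The second (25.7%) had all IT libraries on one side and all D-3 libraries on the other.

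The labelled line was checked against genes that mark osteoblast-like Saos-2 cells. SPARC, a matrix glycoprotein of bone, was high in all 6 libraries, with 111, 143 and 289 FPKM in IT and 122, 112 and 148 FPKM in D-3. RUNX2, a transcription factor of the osteoblast lineage, was detected in all 6. IBSP, the bone sialoprotein, was listed at 0 in all of them, and neither ALPL, the alkaline phosphatase of bone, nor SP7, a late osteoblast factor, reached 0.1 FPKM in any. ALPL and IBSP are commonly used to recognise this line, so these defining markers were absent in both arms. The values go against the label in this respect, and the identity of the line was not tested.

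Between the explant and the gel culture, 10 genes passed the test. In IT, 8 genes rose (0.0369% of the genes tested) and 2 fell (0.00922%). Of the 8, CEMIP is a hyaluronan-degrading protein, TNFRSF19 and PECAM1 are receptors, and TM4SF1 is a membrane protein. The others were the receptor-like PDGFRL, the secreted proteins PAMR1 and FGG, and the ubiquitin ligase RNF144A. The 2 that fell were IL20RB, a subunit of receptors for cytokines of the interleukin-20 family, and FABP4, a fatty acid carrier. All 10 adjusted p were between 0.0481 and 0.0493, just under the threshold.

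**Figure D1:**
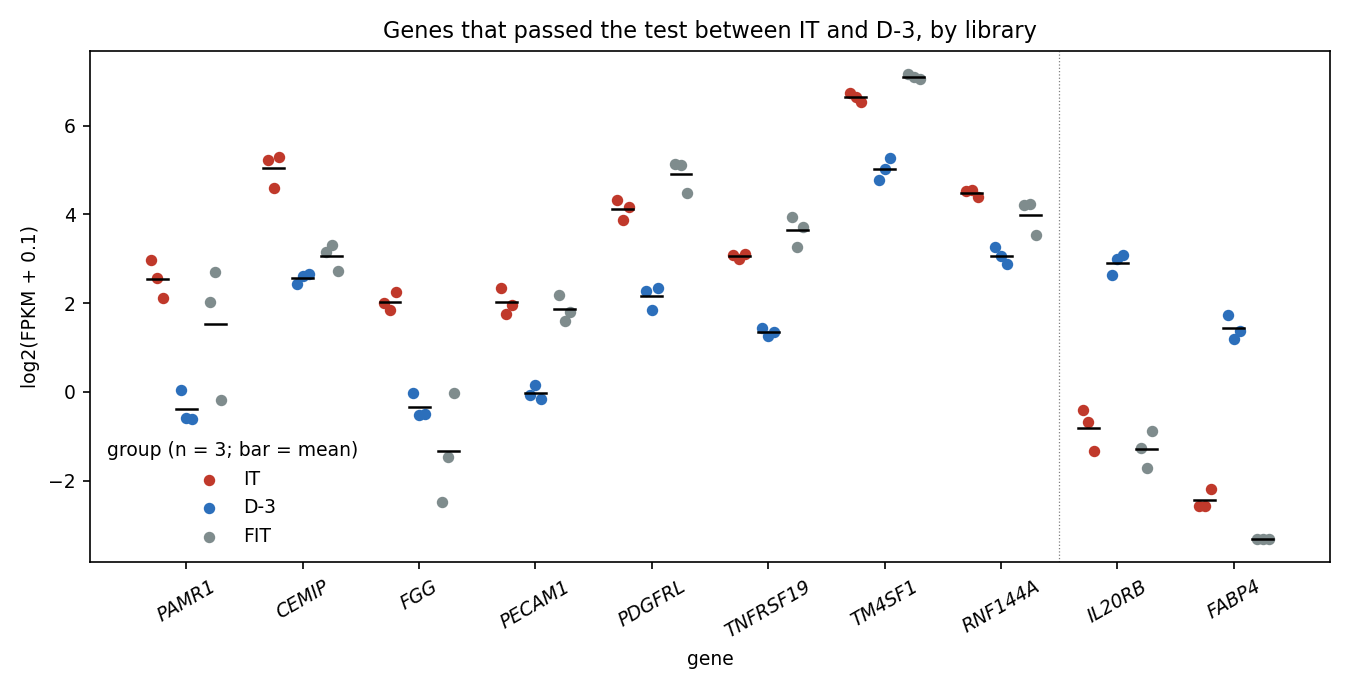
Level of the 10 DEGs in each library, as log2(FPKM + 0.1) on the vertical axis, with IT in red, D-3 in blue and FIT in grey (3 points and a mean bar per group). In each gene the 3 IT points lie apart from the 3 D-3 points. FABP4 is listed at 0 FPKM in all FIT libraries.

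CEMIP (ENSG00000103888, chr15:80779343-80951776) binds and breaks down hyaluronan. It had 37.4, 24.1 and 39.4 FPKM in IT and 5.28, 6.06 and 6.18 FPKM in D-3. The lowest IT library lay several fold above the highest D-3 library, and the log2 fold change was 2.60 ± 0.22 (SE, n = 3 and 3, adjusted p = 0.0481 by edgeR's quasi-likelihood test). FIT held 8.86, 9.87 and 6.50 FPKM, and the means of D-2 and DP-3 were 5.53 and 5.24 FPKM, so the level in IT lay above those of the fresh tumor and of every cultured cell group listed here. FGG (chr4:154604134-154612849), the gamma chain of fibrinogen, was like it in this respect, with 3.93, 3.49 and 4.66 FPKM in IT, 0.889, 0.597 and 0.608 FPKM in D-3 and at most 0.882 FPKM in FIT. Its log2 fold change was 2.58 ± 0.28 (SE, adjusted p = 0.0493).

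PAMR1 (chr11:35431823-35525735), a secreted protein with a protease-like domain, had the largest fold change among the genes that rose. It was read at 7.71, 5.84 and 4.21 FPKM in IT and at 0.934, 0.563 and 0.552 FPKM in D-3, a log2 fold change of 3.18 ± 0.34 (SE, adjusted p = 0.0493). In FIT it ranged from 0.781 to 6.45 FPKM, a spread that covered both the D-3 and the IT range in part. TM4SF1 (chr3:149369022-149377649), a tetraspanin-like protein of the cell surface, was the most abundant of the 10. It held 106, 101 and 93.0 FPKM in IT and 27.1, 32.2 and 38.3 FPKM in D-3, with 132 to 144 FPKM in FIT. D-2 and DP-3 averaged 73.4 and 64.0 FPKM of TM4SF1, between IT and D-3.

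TNFRSF19 (chr13:23570370-23676104), a receptor of the tumor necrosis factor family, varied least within its groups. Its values were 8.33, 7.89 and 8.56 FPKM in IT and 2.60, 2.28 and 2.45 FPKM in D-3, and the log2 fold change was 1.83 ± 0.16 (SE, adjusted p = 0.0481 by edgeR). FIT had 9.51 to 15.2 FPKM, above all IT libraries, while D-2 and DP-3 averaged 5.04 and 5.28 FPKM, between IT and D-3. RNF144A (chr2:6917412-7044179) had 22.9, 23.5 and 20.8 FPKM in IT against 9.53, 8.23 and 7.26 FPKM in D-3. PDGFRL, a gene named for its likeness to a platelet-derived growth factor receptor, had 19.9, 14.7 and 17.8 FPKM in IT and 4.75, 3.50 and 4.96 FPKM in D-3, with 22.2 to 35.3 FPKM in FIT. Exons of PDGFRL overlap MTUS1 on the other strand. Those of CEMIP overlap AC027808 and MESD, and those of TM4SF1 overlap TM4SF1-AS1, also on the other strand. Whether the counting used strand is not stated. MTUS1 itself was read at 6.75, 3.00 and 1.45 FPKM in IT and 0.644, 0.335 and 0.581 FPKM in D-3 and did not pass the test (adjusted p = 0.16 by edgeR).

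PECAM1 (chr17:64319415-64413776), the adhesion receptor CD31 of endothelial cells and platelets, rose as well. It had 5.01, 3.29 and 3.76 FPKM in IT, 0.855, 1.02 and 0.792 FPKM in D-3 and 4.46, 2.93 and 3.40 FPKM in FIT. The log2 fold change between IT and D-3 was 2.24 ± 0.23 (SE, adjusted p = 0.0493 by edgeR), and the IT range overlapped that of FIT. D-2 and DP-3, which hold cells of the line alone, averaged 1.46 and 1.5 FPKM, so the transcript was also read without any host tissue.

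IL20RB (chr3:136946230-137011085) stood out in the gel culture. It had 0.656, 0.523 and 0.299 FPKM in IT and 6.15, 7.85 and 8.33 FPKM in D-3, and the log2 fold change was -3.83 ± 0.35 (SE, adjusted p = 0.0493 by edgeR). FIT held 0.203 to 0.443 FPKM, and D-2 and DP-3 averaged 0.322 and 0.401 FPKM, so only the D-3 libraries among these 5 groups were above 1 FPKM. Exons of IL20RB overlap IL20RB-AS1 and NCK1, and reads shared with either cannot be told apart if strand was not used. FABP4 had 3.20, 2.19 and 2.49 FPKM in D-3 and at most 0.119 FPKM in IT, where the 3 libraries held 8, 8 and 12 estimated counts. Those would be about 3 read pairs or fewer each if 4 counts stand for 1 pair. The log2 fold change of FABP4, -4.77 ± 0.47 (SE, adjusted p = 0.0493 by edgeR), is thus set by very few reads. FABP4 was listed at 0 FPKM in every FIT library and had 0.709, 1.5 and 8.53 FPKM in DP-3, 2 of them below and 1 above every D-3 library.

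**Figure D2:**
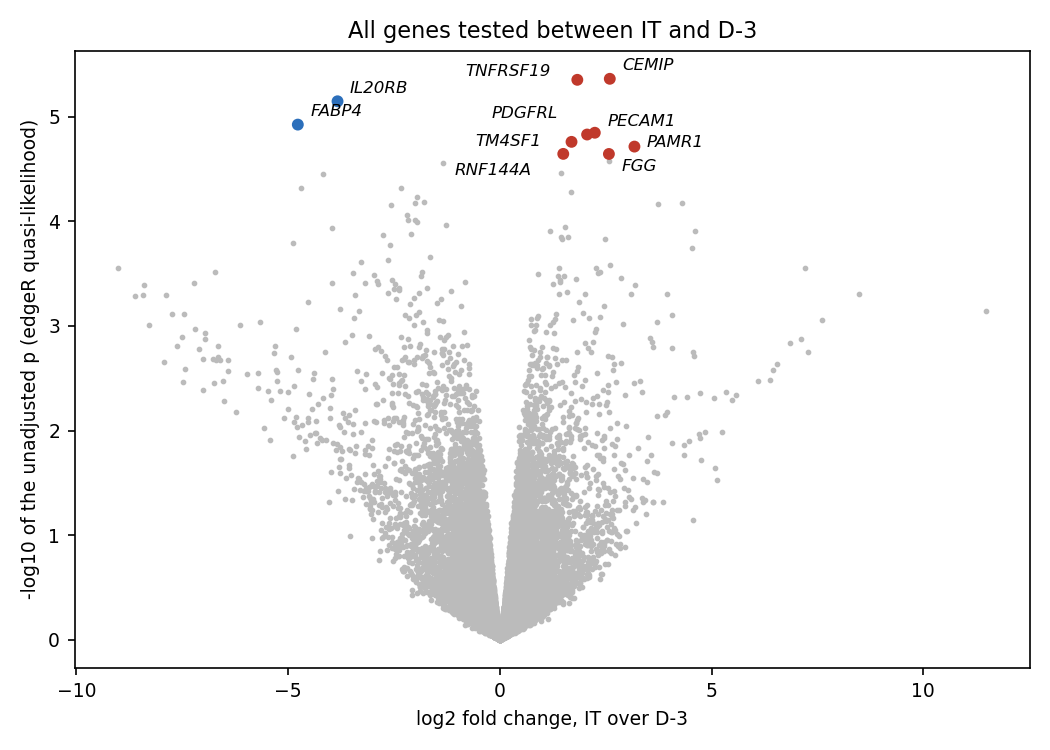
Log2 fold change of IT over D-3 (horizontal axis) against -log10 of the unadjusted p of edgeR's quasi-likelihood test (vertical axis) for the 21702 genes tested. The 10 DEGs are colored red (8, higher in IT) or blue (2, lower in IT) and named. They sit at the top of a broad cloud, and genes with larger fold changes lie lower.

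The short list of DEGs was fragile. At an unadjusted p below 0.05, 847 genes were higher in IT (3.9%) and 1085 were lower (5%), and with an adjusted p limit of 0.1 there were 21 and 20. The biological coefficient of variation over the 6 libraries was 42.8%. Without IT replicate 3, edgeR called 30 genes higher and 19 lower, and all 10 DEGs were among them. Leaving out IT replicate 2 left 1 DEG, which was 1 of the 10, and leaving out D-3 replicate 1 gave 1 DEG that was not among them. Leaving out IT replicate 1, D-3 replicate 2 or D-3 replicate 3 left 0, with 1682, 1907 and 1375 genes at an unadjusted p below 0.05 by edgeR, where all libraries gave 1932. DESeq2, run on all 6 libraries, called 202 genes higher and 327 lower, and the single edgeR fit of all 18 libraries called 102 and 98, and these included 10 and 9 of the 10 DEGs.

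A looser description counts genes whose 3 IT libraries all lay above, or all below, the 3 D-3 libraries. On the scaled counts used for the test, 1452 genes (6.69%) lay above and 1837 (8.46%) below, so that 44.1% of the separated genes were higher in IT. On FPKM the split was 1090 and 2326 (31.9% higher). The shares on scaled counts serve as the background for the lists that follow. Of the genes separated in this way with a fold change of at least 2 and a mean of at least 1 FPKM in the higher group, the 6 higher and 12 lower genes described next had the smallest p after the DEGs, and they did not pass the test.

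Of the 6 genes higher in IT, ADAMTS1, a secreted metalloprotease that cleaves proteoglycans, had 15.4, 13.4 and 12.6 FPKM in IT and 1.89, 3.53 and 1.88 FPKM in D-3 (adjusted p = 0.0506 by edgeR). MMP14, the membrane-anchored collagenase, had 190, 212 and 173 FPKM in IT and 87.3, 96.9 and 82.4 FPKM in D-3 (adjusted p = 0.0843). The cadherin of osteoblasts and mesenchyme, CDH11, was at 24, 26.9 and 31.0 FPKM in IT and at 11.2, 9.95 and 10.8 FPKM in D-3, where D-2 and DP-3 averaged 27.6 and 35.6 FPKM. IT thus lay at the level of the flat and printed cultures for CDH11, and D-3 lay below all of them. IGFBP5, a carrier of insulin-like growth factors that is abundant in bone, had 41.4, 14.7 and 13.8 FPKM in IT and at most 1.74 FPKM in D-3 (log2 fold change 4.6 ± 0.64, SE, adjusted p = 0.0843 by edgeR). LRIG1, an inhibitor of growth factor receptors, and TSPAN1, a tetraspanin, were also higher in every IT library, with log2 fold changes of 1.69 and 1.54.

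Genes lower in IT in the same manner included TLN2, the talin that links integrins to actin (1.77, 2.09 and 1.94 FPKM in IT, 4.93, 5.17 and 5.35 FPKM in D-3, adjusted p = 0.0506 by edgeR). SERPINB7, a serine protease inhibitor, had 1.17, 0.80 and 1.59 FPKM in IT and 7.12, 5.99 and 9.29 FPKM in D-3. PLA2G4A, the phospholipase that releases arachidonic acid, had 0.445 to 0.545 FPKM in IT and 2.30 to 2.57 FPKM in D-3. ANXA1, a phospholipid-binding protein, had 88.7 to 114 FPKM in IT and 232 to 269 FPKM in D-3. ATP2B1, a calcium pump of the plasma membrane, had 4.93 to 8.96 FPKM in IT and 22.7 to 34.4 FPKM in D-3. In D-2 and DP-3, ANXA1 averaged 115 and 122 FPKM and ATP2B1 10.8 and 11.2 FPKM, nearer IT than D-3. PLA2G4A averaged 1.82 and 2.34 FPKM there, nearer D-3, and TLN2 2.75 and 3.20 FPKM, between IT and D-3. SERPINB7 averaged 8.40 FPKM in D-2, near D-3, and 2.39 FPKM in DP-3, nearer IT. OSGIN1, PTPDC1, UNC13D, ABI3BP, SP140, DCAF17 and TMPRSS15 completed the set, with log2 fold changes from -4.17 (TMPRSS15) to -1.78 (PTPDC1) and adjusted p from 0.0551 to 0.0843. TMPRSS15 rests on 15 to 26 estimated counts in the IT libraries. PTPDC1 had 5.28 to 6.91 FPKM in D-3 and at most 2.13 FPKM in any IT, FIT, D-2 or DP-3 library, and OSGIN1, a gene induced by oxidative stress, had 7.91 to 13.2 FPKM in D-3 and at most 2.73 FPKM in the libraries of those 4 groups.

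Genes that mark the fresh tumor were then followed into both cultures. They were chosen from FIT against DP-3 and FIT against D-2, 2 comparisons that use no IT or D-3 library, as DEGs in both. FIT replicate 3 was shallower, with 23721666 estimated counts where FIT replicates 1 and 2 held 64271701 and 65871171. Of 527 tumor-high genes, 484 were tested in IT against D-3. Their median log2 fold change was 0.33 (quartiles -0.01 and 0.90), where that of all genes tested was 0.00. In IT, 361 of the 484 had a positive fold change (74.6%, where all genes tested gave 50.3%). In 109 (22.5%, background 6.69%) every IT library lay above every D-3 library, and in 11 (2.27%, background 8.46%) every one lay below. Of the 8 DEGs that rose (0.0369% of all genes tested), PDGFRL, TNFRSF19 and PECAM1 belonged to this list. Of 244 tumor-low genes, 241 were tested, with a median of -0.36 (quartiles -0.98 and -0.07). Here 193 of 241 had a negative fold change (80.1%, where all genes tested gave 49.7%). In 74 (30.7%, background 8.46%) every IT library lay below, and in 7 (2.90%, background 6.69%) every one lay above. Of the 2 DEGs that fell (0.00922% of all genes tested), FABP4 was a member.

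In each library, the tumor-high genes were expressed against their own mean over D-2 and DP-3. The median over the list was 1.40, 1.15 and 1.3 log2 units above that mean in IT, 1.02, 0.93 and 1.02 in D-3, and 2.02, 1.79 and 1.61 in FIT. No IT library overlapped a D-3 or a FIT library on this measure. D-3 and IT both lay above the flat and printed cells, and IT lay between D-3 and the fresh tumor. The medians of the tumor-low genes were -0.71, -0.57 and -0.87 in IT, -0.40, -0.24 and -0.18 in D-3 and -1.48, -1.47 and -1.20 in FIT, in the mirrored order and again without overlap. FIT at one end and D-2 and DP-3 at the other are fixed by how the genes were chosen. A group left out of that choice tends to lie between them, so the place of IT and D-3 beyond the flat and printed cells is not a result. The choice used no IT or D-3 library, so IT can be set against D-3, though IT and FIT came from parts of the same tumors.

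**Figure D3:**
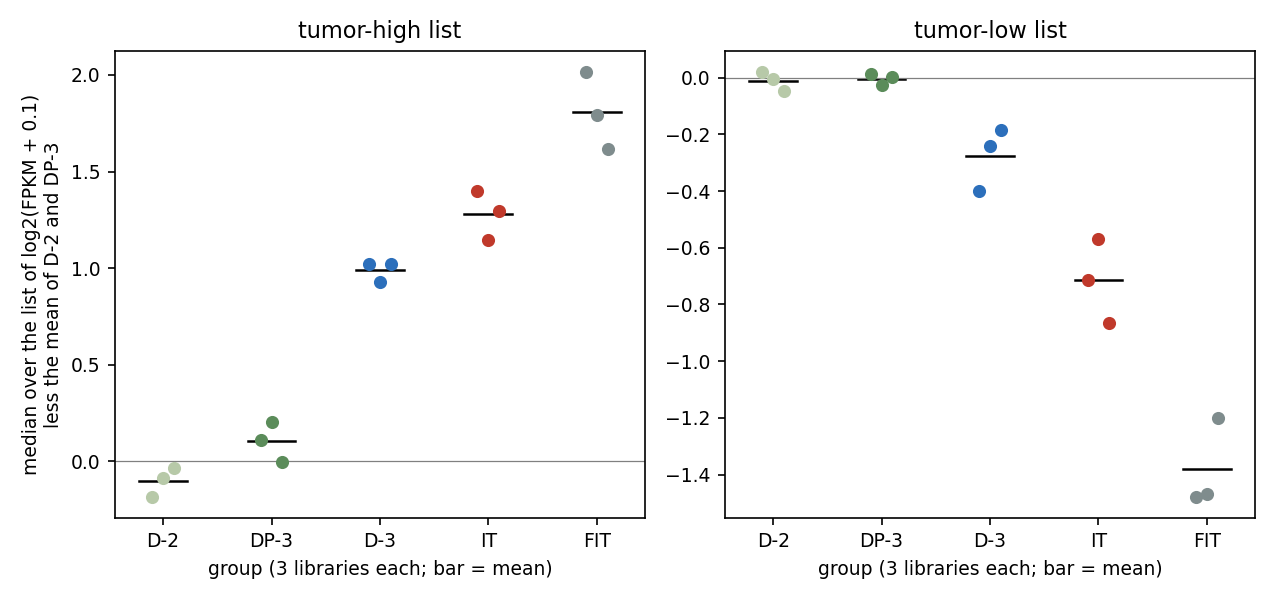
Median over the tumor-high (left) and tumor-low (right) genes of log2(FPKM + 0.1) less the gene's mean over D-2 and DP-3, for each of 3 libraries in 5 groups (bar, mean of the group). The IT libraries lie between D-3 and FIT in both panels, at 1.15 to 1.40 on the left and -0.87 to -0.57 on the right.

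Of the tumor-high genes with a mean of at least 1 FPKM in IT or D-3, the clone-named AC073335 and IGFBP5, GALNT15, KCNE4, TNFRSF11B and MTUS1 had the largest fold changes toward IT. GALNT15, an enzyme of mucin-type glycosylation, had 5.21, 4.48 and 13.2 FPKM in IT and 0.774, 0.112 and 0.542 FPKM in D-3. KCNE4, a subunit of potassium channels, had 5.06, 3.95 and 1.37 FPKM in IT and 0.468, 0.0786 and 0.346 FPKM in D-3. TNFRSF11B, the decoy receptor osteoprotegerin that osteoblasts release to restrain bone resorption, had 2.48, 2.03 and 1.19 FPKM in IT and 0.142, 0.142 and 0.360 FPKM in D-3, with 2.20 to 9.48 FPKM in FIT. Their groups did not overlap, yet the adjusted p of these 3 genes were 0.12 to 0.191 by edgeR. The 3 largest fold changes against the direction of the list were those of OLAH, a thioesterase of fatty acid synthesis (0.18 to 2.13 FPKM in IT, 4.96 to 5.44 FPKM in D-3), and of the interferon-related genes IFI27 and IRF9, with log2 fold changes of -1.5 and -1.09.

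Of the tumor-low genes with a mean of at least 1 FPKM in IT or D-3, FABP4, SERPINB7, PRR16, the noncoding RNA UCA1 and the clone-named AL078612 and AL713998 had the largest fold changes toward D-3. PRR16 had 0.762, 0.497 and 0.284 FPKM in IT and 3.46, 2.40 and 3.08 FPKM in D-3, and D-2 and DP-3 averaged 4.6 and 4.98 FPKM. Every D-3 library lay below every flat and printed library for this gene, and every IT library lay lower still. The 3 largest fold changes against the direction of the list, at the same limit of 1 FPKM, were those of SCD, AL133346 and IL33, out of 48 members with a positive one. SCD, the desaturase that makes monounsaturated fatty acids, had 196, 170 and 54.6 FPKM in IT and 57.1, 35.5 and 44.0 FPKM in D-3. IL33 had 3.17 FPKM in IT replicate 3 and at most 0.301 FPKM in the other IT libraries, below every D-3 library.

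Gene lists of known programs were then read one by one, each by its median log2 fold change and by the genes whose groups did not overlap. The 21 lists held 0 DEGs by edgeR among their 441 genes tested. By DESeq2 they held 20 higher and 9 lower DEGs, where all 21702 genes tested gave 202 and 327. At an unadjusted p below 0.05 by edgeR, 47 were higher (10.7%, all genes tested 3.9%) and 55 were lower (12.5%, all genes tested 5%). The values that follow are a description of levels.

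**Figure D4:**
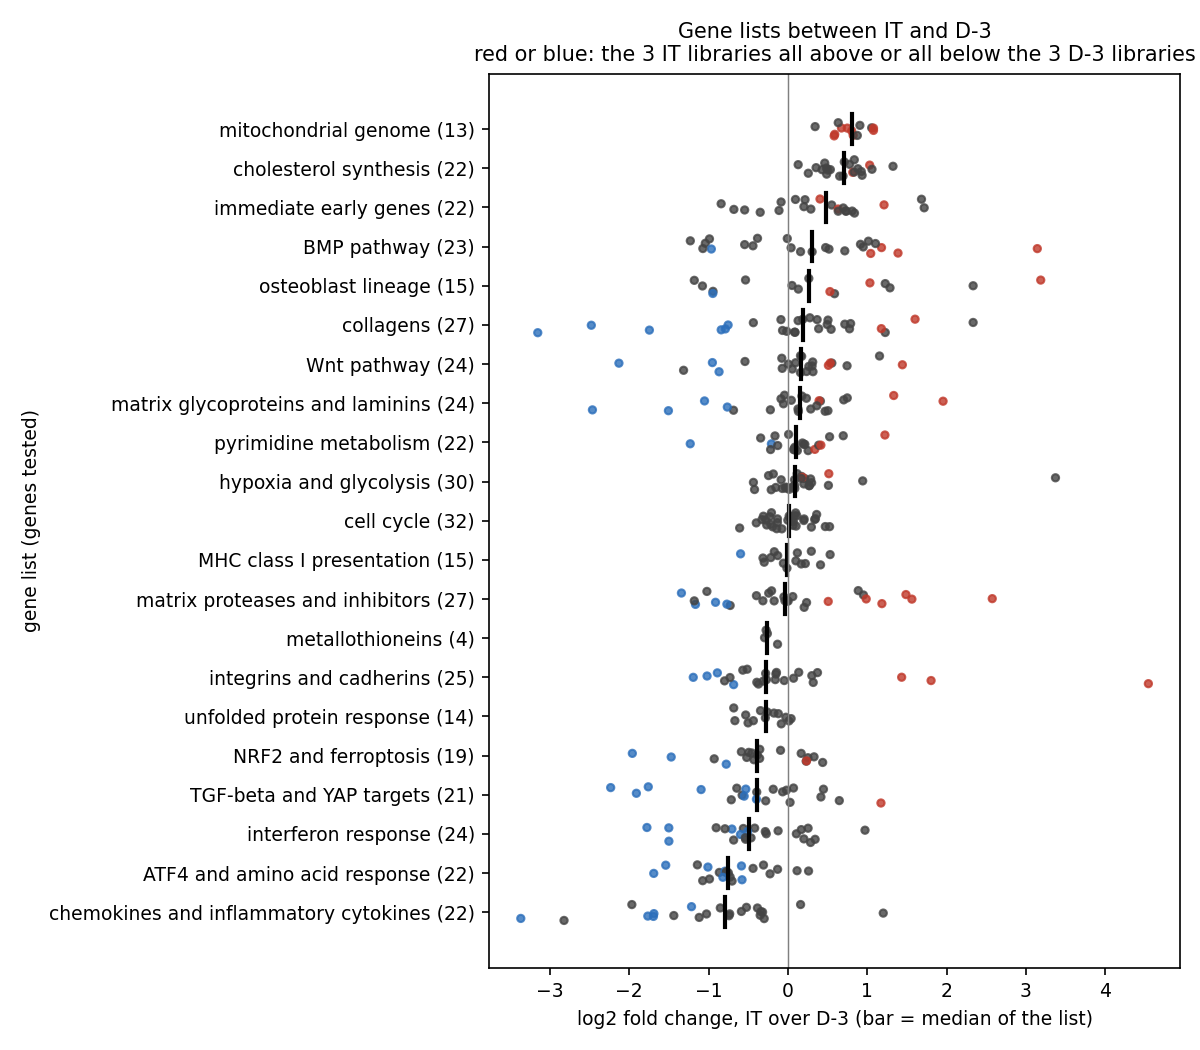
Log2 fold change of IT over D-3 (horizontal axis) for the members of 21 gene lists (vertical axis, with the number of genes tested), black bars marking the list medians. Red or blue points are genes whose 3 IT libraries all lay above or all below the 3 D-3 libraries. Medians run from -0.80 for chemokines to 0.80 for mitochondrial genes.

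The amino acid response is driven by the transcription factor ATF4, which accumulates when amino acids run short or the endoplasmic reticulum is stressed and which turns on enzymes and transporters that restore amino acid supply. Of the 22 members tested, 20 had a negative fold change, the median was -0.76, and 7 (31.8%, background 8.46%) lay below D-3 in every IT library. No member lay above. ASNS, the asparagine synthetase, had 13.6, 3.82 and 5.05 FPKM in IT and 25.3, 23.8 and 26.9 FPKM in D-3 (log2 fold change -1.69 ± 0.44, SE, adjusted p = 0.264 by edgeR). DDIT3, the stress factor CHOP, had 49.9, 18.9 and 36.2 FPKM in IT and 145, 64.6 and 112 FPKM in D-3 (adjusted p = 0.264). FIT had at most 11 FPKM of DDIT3, less than any IT library, and 2.13 to 6.28 FPKM of ASNS, a range that held IT replicates 2 and 3 but not replicate 1. The other 5 separated members were PHGDH, MTHFD2, ALDH1L2, SLC3A2 and STC2. TRIB3 (30.6, 7.12 and 9.24 FPKM in IT, 46.6, 30.6 and 31.0 FPKM in D-3) and DDIT4 overlapped through IT replicate 1, which held the highest IT level of each of these 4 named genes. D-2 and DP-3 averaged 2.82 and 4.85 FPKM of ASNS, 4.62 and 7.21 of DDIT3, 3.78 and 6.16 of TRIB3, and 3.59 and 5.71 of DDIT4. Every D-2 and DP-3 library lay below every D-3 library for all 4, so a level below D-3 was not particular to the explant.

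Promoter sequences are shown for the members whose letters carry the core of the C/EBP-ATF response element. The letters TGATGNAA, which are part of that element, were searched on both strands in the 250 bases before the start of each gene, in RefSeq sequences of GRCh38.p14. Of the 22 members, 19 had a sequence and 3 (15.8%) held a match, as did 870 of the 27305 genes in the table (3.19%). The match is in capitals in each of the following, which read 5′ to 3′ on the gene's strand and end at the base before the start.
ASNS, chr7:97872409-97872658, minus strand: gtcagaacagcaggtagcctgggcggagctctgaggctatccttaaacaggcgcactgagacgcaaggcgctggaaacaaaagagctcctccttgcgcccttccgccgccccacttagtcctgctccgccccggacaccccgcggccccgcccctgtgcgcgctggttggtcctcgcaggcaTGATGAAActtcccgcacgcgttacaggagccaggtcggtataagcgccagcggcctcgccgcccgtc
ATF3, chr1:212565157-212565406, plus strand: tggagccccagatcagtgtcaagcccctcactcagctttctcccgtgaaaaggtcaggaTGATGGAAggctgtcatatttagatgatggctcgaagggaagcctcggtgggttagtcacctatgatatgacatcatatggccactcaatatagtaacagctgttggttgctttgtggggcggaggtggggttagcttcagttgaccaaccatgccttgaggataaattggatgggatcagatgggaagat
CHAC1, chr15:40953221-40953470, plus strand: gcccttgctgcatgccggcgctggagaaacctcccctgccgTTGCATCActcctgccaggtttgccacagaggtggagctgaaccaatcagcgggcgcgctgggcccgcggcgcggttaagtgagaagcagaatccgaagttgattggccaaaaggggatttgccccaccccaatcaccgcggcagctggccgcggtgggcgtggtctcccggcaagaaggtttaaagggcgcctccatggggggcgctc
The match begins 68 bases before the start of ASNS, 191 bases before that of ATF3 and 209 bases before that of CHAC1, where it lies on the opposite strand. In IT against D-3, the log2 fold changes of the 3 genes were -1.69, -0.73 and -0.13. A match describes letters and not a bound site, and genes without one may hold the element outside this window.

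Chemokines and inflammatory cytokines, which call in and activate immune cells, had the lowest median of all lists at -0.80, with 20 of 22 members below 0. In 5 of them (22.7%, background 8.46%) every IT library lay below every D-3 library. These were the chemokines CXCL5, CXCL10 and CXCL11, and PTGS2 and ICAM1, listed members that are themselves neither chemokines nor cytokines. CXCL10, a chemokine induced by interferon, had 0.0377, 0.359 and 1.88 FPKM in IT and 2.43, 2.42 and 2.96 FPKM in D-3. IT replicate 1 held only 4 estimated counts of CXCL10. CXCL8, a chemokine for neutrophils, had 1.68, 11.5 and 6.70 FPKM in IT and 11.1, 18.1 and 28 FPKM in D-3, and CCL20 had at most 0.634 FPKM in IT and 0.588 to 4.53 FPKM in D-3. CXCL8 and CCL20 overlapped between the groups, with adjusted p of 0.589 and 0.465 by edgeR.

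The interferon response genes, which cells turn on against viruses, had a median of -0.49 over 24 members. In 6 (25%, background 8.46%) every IT library lay below every D-3 library. IFI6 had 27.9, 38.5 and 93.9 FPKM in IT and 126, 246 and 107 FPKM in D-3, and IFI44L had 0.577 to 1.13 FPKM in IT and 2.20 to 4.97 FPKM in D-3. D-3 replicate 2 was the highest library for both, and without it the list's median was 0.00. RSAD2, an antiviral enzyme of the same list, had 8.5, 3.89 and 2.46 FPKM in IT and 1.3, 5.21 and 1.37 FPKM in D-3, with no separation. The genes of MHC class I presentation had a median of -0.01 (15 tested).

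**Figure D5:**
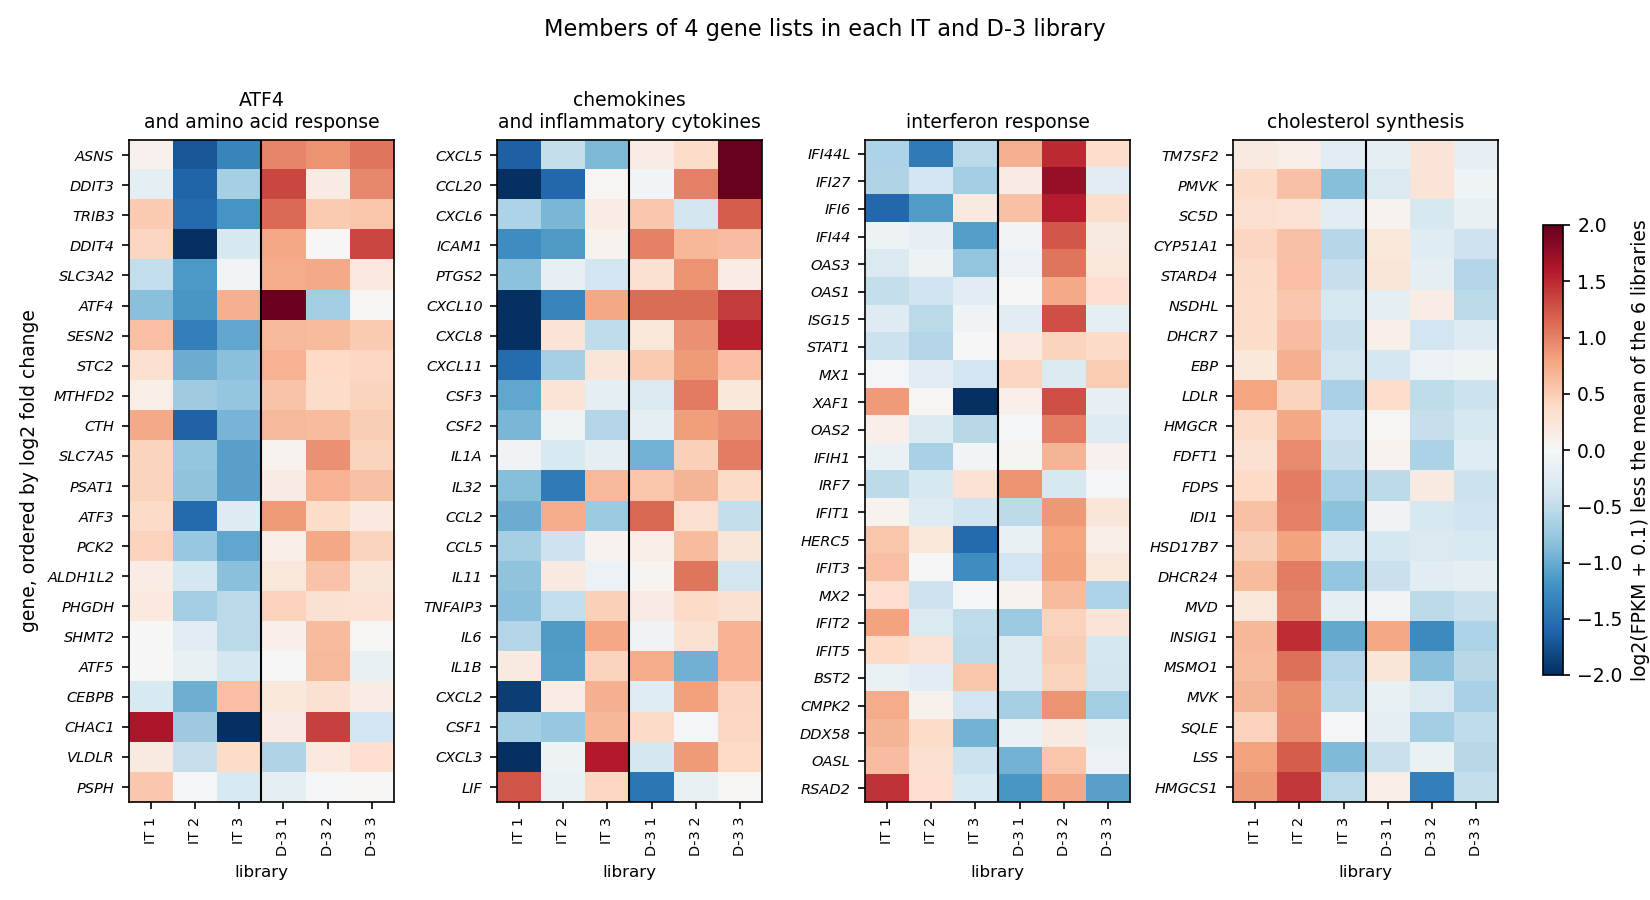
Each row is a gene and each column a library, for 4 lists. Color shows log2(FPKM + 0.1) less the gene's mean over the 6 libraries, from blue (-2) to red (2). The ATF4 and chemokine genes are bluer in IT, IT replicate 1 is paler for ATF4 genes, D-3 replicate 2 is reddest for interferon genes, and cholesterol genes are red in IT replicates 1 and 2 and blue in IT replicate 3.

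Cholesterol synthesis, the pathway from acetyl-CoA to sterols that cells raise when sterols are scarce, went the other way. All 22 members tested had a positive fold change and the median was 0.70, yet only 2 members, SQLE and HSD17B7, were separated (9.09%, background 6.69%). SQLE, the squalene epoxidase, had 33.4, 46.5 and 23.4 FPKM in IT and 21.4, 15.0 and 16.9 FPKM in D-3 (adjusted p = 0.267 by edgeR). HMGCS1, which makes the precursor of mevalonate, had 27.1 and 39.7 FPKM in IT replicates 1 and 2 but 10.3 FPKM in IT replicate 3, within the D-3 range of 5.71 to 16.1 FPKM. IT replicate 3 also lay within or below the D-3 range for LSS and MVK, further enzymes of the pathway. The median thus rests on IT replicates 1 and 2.

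Transcripts of the mitochondrial genome, which encode subunits of the respiratory chain, had the highest median at 0.80. All 13 were positive, 8 (61.5%, background 6.69%) were separated, 0 were DEGs by edgeR, 9 had an unadjusted p below 0.05 with a positive fold change, and DESeq2 called 1. MT-ATP8 had 10280, 12080 and 7370 FPKM in IT and 4302, 4537 and 5988 FPKM in D-3, and MT-CYB had a log2 fold change of 1.08 ± 0.32 (SE, adjusted p = 0.347 by edgeR). These move together with the mitochondrial share of all counts given above, and whether it reflects RNA handling was not tested.

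Targets of TGF-beta and YAP, which cells express on stiff support or under tension, had a median of -0.39 over 21 members. In 7 (33.3%, background 8.46%) every IT library lay below every D-3 library. ACTA2, the smooth muscle actin, had 1.03, 1.56 and 2.22 FPKM in IT and 7.43, 6.42 and 5.39 FPKM in D-3 (log2 fold change -1.91 ± 0.33, SE, adjusted p = 0.122 by edgeR). ANKRD1, a YAP target, had 8.05, 4.94 and 3.12 FPKM in IT and 25, 16.9 and 37.9 FPKM in D-3, with at most 1.57 FPKM in FIT. TGFBI had 1.08 to 3.41 FPKM in IT and 4.40 to 11.6 FPKM in D-3. CCN2, which is also a YAP target, was the one separated the other way, with 61.1, 49.9 and 92.5 FPKM in IT and 23.9, 27.0 and 44.3 FPKM in D-3.

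In the BMP pathway, the signal that drives bone formation, 4 of 23 genes were separated upward (17.4%, background 6.69%) and 1 downward (4.35%, background 8.46%). At an unadjusted p below 0.05 by edgeR, 3 were higher in IT (13.0%, all genes tested 3.9%) and 6 were lower (26.1%, all genes tested 5%). DEGs numbered 0 by edgeR, and DESeq2 called 2 higher. BMP4 had 2.02, 1.98 and 1.56 FPKM in IT and 1.21, 0.637 and 0.731 FPKM in D-3 (adjusted p = 0.338 by edgeR). D-2 and DP-3 both averaged 1.84 FPKM of BMP4, within the IT range. SMAD1, which carries the signal, had 8.87, 7.36 and 4.78 FPKM in IT and 3.07, 2.58 and 2.78 FPKM in D-3 (adjusted p = 0.122). GDF5 and CHRD, a further ligand and an inhibitor that binds BMPs, were also separated upward, and SMAD7 downward. ID1, a direct target, had 53.6, 60.3 and 104 FPKM in IT and 77.0, 150 and 230 FPKM in D-3, and SMAD6, a feedback inhibitor, had 0.705, 1.07 and 2.37 FPKM in IT and 1.92, 3.71 and 4.67 FPKM in D-3. Both overlapped between the groups. BMP2, ID3 and SMAD9 had log2 fold changes of 0.48, -0.38 and -1.04. The list median was 0.31 over 23 genes, and -0.18 without IT replicate 3.

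Osteoblast lineage genes had a median of 0.26 over 15 tested of 26. TNFRSF11B, ENPP1 and ANKH were separated upward, the latter 2 being regulators of pyrophosphate, the inhibitor of mineral growth, and VDR downward. COL1A1, the main collagen of bone, had 2.53, 12 and 4.61 FPKM in IT and 2.69, 2.94 and 3.02 FPKM in D-3, while FIT held 19.6 to 21.0 FPKM. COL1A2 had 1.41, 7.90 and 17.7 FPKM in IT and 1.52 to 2.51 FPKM in D-3. The groups were separated for neither gene, since IT replicate 1 lay below the D-3 range. For collagen I the explant libraries therefore disagreed, and no IT library reached the COL1A1 level of the fresh tumor.

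Other matrix genes went both ways. Among 27 collagens the median was 0.19. Of these, 2 (7.41%, background 6.69%) were separated upward, COL5A3 and COL8A1. Another 6 (22.2%, background 8.46%) were separated downward, among them COL3A1, COL12A1 and COL16A1. BGN, the small proteoglycan biglycan, had 24.8, 26.3 and 49.5 FPKM in IT and 12.9, 7.42 and 7.09 FPKM in D-3, and LAMA5, a laminin chain, had 8.08, 9.14 and 5.29 FPKM in IT and 3.30, 2.47 and 3.62 FPKM in D-3. The median of the 24 matrix glycoproteins and laminins was 0.15. Of 27 proteases and inhibitors, 6 were separated upward (22.2%, background 6.69%), namely ADAMTS1, MMP14, ADAMTS14, ADAMTS15, PLAU and PLAT. A further 4 (14.8%, background 8.46%) were separated downward, namely MMP3, MMP10, ADAMTS2 and ADAMTS9. MMP3, the stromelysin, had 3.11, 12.8 and 26.3 FPKM in IT and 29.3, 31.6 and 52.4 FPKM in D-3, with at most 0.32 FPKM in FIT. Among integrins and cadherins (median -0.27 over 25, and 0.07 with a minimum of 1 FPKM), ITGA10, a collagen-binding integrin, had 23.3, 29.5 and 15.9 FPKM in IT and 9.07, 5.11 and 6.53 FPKM in D-3, and CDH2, the neural cadherin, had 3.62 to 4.05 FPKM in IT and 4.59 to 7.5 FPKM in D-3.

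Programs of stress, signaling and growth completed the lists. The NRF2 and ferroptosis list, genes that guard against oxidation, had a median of -0.39 over 19. OSGIN1, TXNRD1 and SLC7A11 (15.8%, background 8.46%) lay below in every IT library, and 1 member (5.26%, background 6.69%) lay above. SLC7A11, the cystine importer, had 5.47, 1.69 and 1.15 FPKM in IT and 8.96, 7.13 and 7.98 FPKM in D-3 (adjusted p = 0.456 by edgeR). HMOX1, the heme oxygenase, had 66.2, 44.7 and 84.6 FPKM in IT and 171, 139 and 82.3 FPKM in D-3, and the ferritin light chain FTL overlapped between the groups too. Unfolded protein response genes had a median of -0.27 over 14, with 0 separated, and without D-3 replicate 2 the median was 0.08. In the Wnt pathway (0.17 over 24), WNT9A, a ligand, had 19.4, 17.4 and 12.8 FPKM in IT and 6.94, 6.79 and 5.41 FPKM in D-3 (adjusted p = 0.0843), and LEF1, a transcription factor of the pathway, had 0.722 to 0.879 FPKM in IT and 1.37 to 1.75 FPKM in D-3. FZD6, WNT10B and DKK1 overlapped, with log2 fold changes of 0.31, -0.08 and -0.54.

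The cell cycle list showed no separation in either direction, with a median of 0.02 over 32 genes and 0 genes at an unadjusted p below 0.05 by edgeR. Neither edgeR nor DESeq2 called a DEG in it. Hypoxia and glycolysis genes had a median of 0.09 over 30, and 28 of them overlapped between the groups. The other 2 (6.67%, background 6.69%) lay above D-3 in every IT library. Immediate early genes had a median of 0.48 over 22, which was -0.11 without IT replicate 3.

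Host cells could be present in IT and not in D-3, and their markers were read in both. The summed FPKM of the endothelial list was 38.0 to 55.4 in IT and 44.7 to 46.0 in D-3, most of it from TIE1, which had 29.2 to 42.1 FPKM in IT and 37.2 to 39.0 FPKM in D-3. CDH5, the cadherin of vessel walls, had 0.874, 1.34 and 0.320 FPKM in IT and 0.0228 to 0.0546 FPKM in D-3 (adjusted p = 0.0947 by edgeR), and TEK was below 0.6 FPKM throughout. Of the 8 endothelial genes tested, 6 had a positive and 2 a negative fold change, and 2 were separated upward and 1 downward. ESAM, ROBO4 and EGFL7 overlapped between the groups, with log2 fold changes of 0.70, 0.34 and -0.30. The rise of PECAM1 thus went with higher CDH5, but not with a higher TIE1 or with a single direction over the list. What part host vessels have in it was not tested.

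Fibroblast and pericyte markers summed to 45.6 to 67.5 FPKM in IT and 43.7 to 52.8 FPKM in D-3. PDGFRA, a growth factor receptor of mesenchymal cells, had 14, 17.9 and 9.24 FPKM in IT and 4.78, 5.34 and 4.96 FPKM in D-3, and D-2 and DP-3 averaged 11.7 and 12.4 FPKM. PDGFRB had 5.01 to 7.21 FPKM in IT and 2.59 to 3.44 FPKM in D-3. PDGFRA and PDGFRB were separated upward (18.2% of 11 tested, background 6.69%). LUM, COL3A1, COL14A1 and ABCC9 of the same list lay below in every IT library (36.4%, background 8.46%). Adipocyte markers summed to 0.835 to 1.43 FPKM in IT and 4.33 to 7.99 FPKM in D-3. FABP4, PLIN4 and CD36 were lower in each IT library (60.0% of 5 tested, background 8.46%). D-3 holds no host tissue, so for this list the group without host cells was the higher one.

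Markers of skeletal muscle summed to 0.794 to 1.56 FPKM in IT and 1.72 to 3.15 FPKM in D-3, and those of lymphocytes to 5.14 to 11.8 and 11.7 to 21.1 FPKM. Most of the lymphocyte sum was IL7R, a cytokine receptor chain, with 4.43 to 9.31 FPKM in IT, 10.9 to 19.8 FPKM in D-3 and a mean of 29.8 FPKM in D-2, and NKG7 of that list was separated the other way (0.413 to 2.32 FPKM in IT, at most 0.404 FPKM in D-3). Macrophage and neutrophil markers summed to 49.7 to 71.0 FPKM in IT and 66.9 to 92.2 FPKM in D-3, mostly from CD68, and C1QA, C1QB and TYROBP were listed at 0 in all 6 libraries. Keratinocyte markers summed to 32.7 to 33.9 FPKM in IT and 28.5 to 33.3 FPKM in D-3. None of the red blood cell markers was expressed enough to be tested. Reads of mouse cells enter such sums only as far as they aligned to the human reference, so these markers do not measure how much mouse tissue an explant held.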

How the data were processed

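RNA was sequenced in 18 libraries, and the 3 IT and 3 D-3 libraries were compared. Per the submitters' processing notes the tools were cutadapt 1.9, HISAT2 2.0.4, StringTie 1.3.4d, DESeq2 and edgeR. The deposited FPKM are the authors' StringTie values. The deposited estimated counts are whole numbers, of which 35.0% between 1 and 40 are multiples of 4, and how the authors made them is not given in the sources used here, nor is the build or the strand setting. The files' gene positions overlapped those of GENCODE release 29 (GRCh38) for 99.9% of 48223 shared genes, so positions are given on GRCh38.

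The rounded counts of genes that reached 0.1 FPKM in 3 or more of the 6 libraries were tested with edgeR 4.0.16 (TMM scaling, glmQLFit with default settings, glmQLFTest). DEGs had an adjusted p below 0.05 (Benjamini-Hochberg) and a fold change of at least 2. SE is the absolute log2 fold change over the square root of F. Limits of detection were set at 12 counts, taken as about 3 read pairs (0.179 to 0.210 CPM in the 6 libraries), and cover counting error only. Groups were called separated on TMM-scaled counts. The code was tested on simulated counts.

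Genes were named by rule: up to 14 separated genes in each direction with at least 1 FPKM in the higher group (DEGs by fold change, then genes with a fold change of at least 2 by p), up to 4 members of each list by fold change, genes the paper names, and the extremes of the tumor lists. The members and lists were chosen with earlier results of these data known. Genes listed as the separated members of a list were chosen after their values were seen. LEFTY1 was too low to be tested, and 1 marker gene of the line is not reported here. Alternatives were DESeq2 1.42.0, limma 3.58.1 on log2(FPKM + 0.1) and log2(FPKM + 1), other scalings and filters, all 18 libraries in one fit, a replicate block, and each library left out. The count of separated genes on FPKM was added after seeing the data.

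Same-numbered IT and D-3 libraries did not deviate together (correlations of deviations from the group means -0.15, 0.20 and 0.13), so the numbers were not used as pairs.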

Additional observations from a re-analysis of the deposited data

How the results depend on the processing

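All 10 DEGs kept their direction under the 17 alternatives, and 108 of the 170 combinations of gene and alternative kept the call. DEGs higher and lower in IT numbered 202 and 327 with DESeq2, 21 and 25 with edgeR's legacy = FALSE, 21 and 20 with counts divided by 4, 13 and 10 with no filter, and 102 and 98 with all 18 libraries in one fit. DEGs lower in IT were 6 and 9 with limma on log2(FPKM + 0.1) and log2(FPKM + 1), and 9 with a minimum of 1 FPKM. With the replicate block, 1 gene was higher and 0 were lower (1832 genes at an unadjusted p below 0.05 by edgeR), and 0 of the 10 DEGs were called. Leaving out each library gave 0 to 30 DEGs higher and 0 to 19 lower. Scaling by median of ratios gave 9 and 2, and leaving out mitochondrial genes 8 and 2.

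The tumor-high median stayed positive at 0.12 to 0.40 over all alternatives and was 0.12 with limma on log2(FPKM + 1), where the larger pseudocount shrinks low genes. That of the tumor-low list was -0.48 to -0.28. Leaving out each library gave 0.29 to 0.40 and -0.48 to -0.30. Medians of the ATF4 list (-1.25 to -0.55), chemokines (-1.14 to -0.50), TGF-beta and YAP targets (-0.56 to -0.31), cholesterol synthesis (0.33 to 1.02) and mitochondrial genes (0.61 to 0.88) kept their sign. Those of cell cycle, MHC class I, protease and pyrimidine genes changed sign in 3 to 5 alternatives. With a minimum of 1 FPKM the median of the integrins and cadherins was 0.07, and without D-3 replicate 2 those of the interferon and unfolded protein response genes were 0.00 and 0.08. Without IT replicate 3 the medians of the collagens and of the BMP and immediate early genes turned negative (-0.03, -0.18 and -0.11). Genes under about 12 counts in a group, FABP4 among them, are limited by depth.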

Other observations

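Of 22 genes of pyrimidine metabolism, 3 (13.6%, background 6.69%) lay above D-3 in every IT library on the scaled counts. Below D-3 lay 2 (9.09%, background 8.46%), and the median log2 fold change was 0.10. NT5E, the surface enzyme CD73 that makes adenosine, had 67.6, 45.7 and 27.1 FPKM in IT and 16.2, 28.5 and 18.3 FPKM in D-3 (adjusted p = 0.329 by edgeR's quasi-likelihood test). D-2 and DP-3 averaged 43 and 48 FPKM of NT5E, within the IT range. UPP1, which splits uridine, had 19.9, 5.85 and 9.80 FPKM in IT and 40.9, 23.1 and 23.5 FPKM in D-3 (adjusted p = 0.457). CMPK2, a mitochondrial nucleotide kinase, and LCAT, an enzyme of cholesterol esters in plasma, overlapped between the groups, with log2 fold changes of 0.26 and -0.02. NFATC2, a transcription factor regulated by calcium, had 0.238 to 0.409 FPKM in IT and 0.202 to 0.313 FPKM in D-3, where FIT had up to 3.98 FPKM, so both cultures lay below every FIT library for this gene.

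The 4 metallothioneins tested, which bind zinc and copper, all had a negative fold change with a median of -0.27, and none was separated on the scaled counts. CA9, a carbonic anhydrase induced by low oxygen, had 0.228, 0.0712 and 2.63 FPKM in IT and 0.0743 to 0.120 FPKM in D-3, a difference owed to IT replicate 3. It was singled out after its values were seen. FOS and NR4A2, early genes induced within minutes of a stimulus, had 6.62 and 5.73 FPKM in IT replicate 3 and at most 1.06 FPKM in the other IT libraries.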
